A study of Mus musculus with 24 samples.

Results

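The homing chemokines described here are 4 ligands (Cxcl12, Cxcl13, Ccl19 and Ccl25) and 6 receptors (Cxcr4, Cxcr5, Ccr7, Ccr9, Ccr6 and Ackr3), chosen by symbol as 10 of the 55536 genes in the deposited table of read counts. The table holds bulk RNA sequencing of the ileal end of the small intestine from 24 mice of the inbred strain C57BL/6N, 1 library per animal and none pooled, in 4 groups of 6 (3 males and 3 females). The animals were 4 to 5 weeks old at the start and ate a control diet with 10% of its energy as fat (CD) or a high-fat diet with 60% (HFD). After 20 weeks, the CDmetf and HFDmetf groups were given the glucose-lowering drug metformin in drinking water for 10 weeks, at a dose of 50 mg/kg per day, and the CD and HFD groups were not. Cages of 3 animals were arranged in 3 blocks shifted in time, and 1 animal of each cage was sequenced. The comparisons ask whether diet or metformin changes the intestinal transcriptome and whether the effect of one depends on the other.

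Chemokines are small secreted proteins that direct the migration of leukocytes along gradients, through receptors coupled to G proteins on the cell surface. The homing chemokines act without inflammation: CXCL13 and its receptor CXCR5 gather B cells into follicles, CCL19 brings T cells and dendritic cells that carry CCR7 into the zone around them, and CXCL12, made by stromal and endothelial cells, acts on CXCR4, which most leukocytes carry. In the small intestine, CCL25 from the epithelium recruits lymphocytes that carry CCR9, and CCR6 marks B cells and other lymphoid cells of the follicles below the epithelium. ACKR3 is an atypical receptor that binds CXCL12 and removes it. The gut wall holds these follicles in Peyer's patches and in smaller isolated structures, spaced irregularly along its length.

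RefSeq promoter sequences were available for 8 of the 10 members (build GRCm38.p6), all but Cxcr5 and Ccr7. The 250 bases before an annotated start are shown for 3 members whose levels varied together across libraries (Cxcr4, Cxcl13 and Ccr6) and for Ccl25, which varied apart from them. Capitals mark matches, on either strand, to 4 short patterns: the TATA box (TATAAA), the octamer of B cell promoters (ATGCAAAT), a PU.1 box (GAGGAAGT) and a kappaB pattern (GGGA, any 4 bases, CC).
Cxcr4: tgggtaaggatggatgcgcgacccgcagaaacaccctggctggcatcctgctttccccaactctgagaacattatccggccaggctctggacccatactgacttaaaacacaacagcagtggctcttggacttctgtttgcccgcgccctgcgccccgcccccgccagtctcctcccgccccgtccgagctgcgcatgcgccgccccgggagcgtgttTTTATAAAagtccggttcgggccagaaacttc
Cxcl13: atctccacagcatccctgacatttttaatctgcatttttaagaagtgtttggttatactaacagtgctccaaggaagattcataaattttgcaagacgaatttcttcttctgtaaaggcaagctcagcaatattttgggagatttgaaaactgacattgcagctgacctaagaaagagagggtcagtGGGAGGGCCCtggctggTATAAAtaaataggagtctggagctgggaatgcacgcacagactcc
Ccr6: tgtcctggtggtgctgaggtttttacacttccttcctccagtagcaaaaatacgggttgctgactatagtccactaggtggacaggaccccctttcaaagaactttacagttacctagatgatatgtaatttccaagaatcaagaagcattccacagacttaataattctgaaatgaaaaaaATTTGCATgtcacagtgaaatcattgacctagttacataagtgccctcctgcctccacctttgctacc
Ccl25: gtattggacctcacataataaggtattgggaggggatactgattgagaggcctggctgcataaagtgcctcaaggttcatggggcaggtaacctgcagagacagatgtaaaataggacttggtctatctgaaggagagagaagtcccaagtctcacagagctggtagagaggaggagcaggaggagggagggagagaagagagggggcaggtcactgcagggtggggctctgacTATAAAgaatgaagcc
The Cxcr4 window lies at chr1:128592300-128592549 on the minus strand. Its capitals are TATA box matches on both strands that overlap each other, 25 to 32 bases before the start. The Cxcl13 window, chr5:95956689-95956938 on the plus strand, held a kappaB match 54 to 63 bases and a TATA box 41 to 46 bases before the start, which do not overlap. The Ccr6 window, chr17:8235793-8236042 on the plus strand, held the octamer 61 to 68 bases before the start. A second annotated start of Ccr6, with its window at chr17:8242276-8242525, held a kappaB match in place of the octamer. The Ccl25 window, chr8:4349338-4349587 on the plus strand, belongs to the downstream one of 2 annotated starts and held a TATA box 11 to 16 bases before it. The window of the upstream start, chr8:4324960-4325209, is not shown and matched none of the 4 patterns. Of all 32851 promoter windows of this length, 12.4% held the TATA box, 1.6% the octamer, 2.44% the PU.1 box and 17.6% the kappaB pattern. The PU.1 box matched none of the members' windows, and the matches are descriptions of the letters only.

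Libraries are named by group, labelled sex (M or F) and replicate number. Reads assigned to genes ranged from 1829690 to 40606442 per library (median 3467307.5), so that 3 reads corresponded to 0.0722 CPM in the deepest library and 1.65 CPM in the shallowest. CPM here are read counts relative to the library size after TMM, edgeR's normalization. Sex-linked transcripts went against the label in HFD M2 and in HFD F2: HFD M2 held 3355 reads of Xist and 0 of 4 Y-linked genes, and HFD F2 held 1 and 423. In CD M3, 85.4% of the reads on genes fell on 10 genes, and in HFDmetf F2 36.6%. Results are therefore also given without these 4 libraries. Epithelial markers were abundant in every library (summed CPM 4339 to 11270 over 7 genes), and the ileal markers Fabp6 and Slc10a2 ranged from 5.89 to 3514 summed CPM. No 2 libraries were identical.

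Expressed per kilobase of exon, the members covered a wide span of levels. Ccl25 stood highest with a median of 34.3 CPM per kb over the 24 libraries, and its range did not overlap that of Cxcl12, the next in order. Its lowest library (16.7 CPM per kb) was below the highest of Cxcl13 (31.9 CPM per kb). Cxcl12 followed with a median of 5.65 CPM per kb, then Cxcl13 with 2.66, Cxcr4 with 2.32 and Ackr3 with 1.41. The remaining receptors were lower, at medians of 0.503 for Ccr9, 0.322 for Ccr6, 0.197 for Ccr7 and 0.134 for Cxcr5. Ccl19 had a median of 0. Below Ccl25, the ranges of neighbours in this order overlapped, except that the lowest Ackr3 library (0.927) was above the highest Ccr9 library (0.902). Thus 3 of the 4 ligands stood above all 6 receptors in median level per length, and the exception was Ccl19. The counted strand is not given in the sources used here, so the values of genes that overlap another gene on the opposite strand are uncertain. For Ccr9, 21.5% of the exon length is shared with genes on either strand. Gm17020 and Gm17200, among the genes that overlap Ccr9, lie on its own strand. The share is 3.3% for Cxcr5 (Bcl9l, opposite strand) and 2.7% for Ccl25 (Elavl1, opposite strand).

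**Figure D1:**
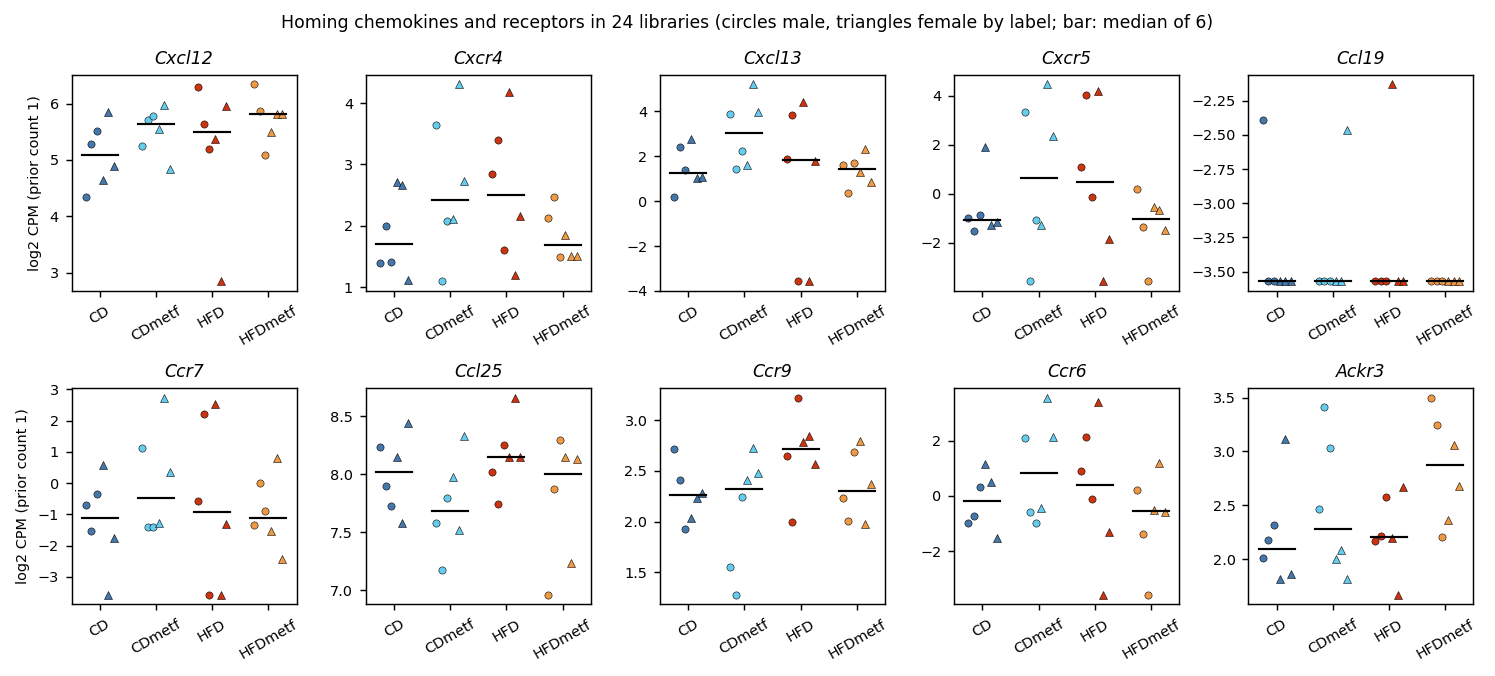
Expression of the 10 members in each library, as log2 CPM with a prior count of 1, by group (circles male and triangles female by label, bar: median of 6). Cxcl13, Cxcr4, Cxcr5, Ccr7 and Ccr6 each have a few high libraries in CDmetf and HFD and none as high in HFDmetf, while Ccl25, Ccr9 and Ackr3 lie within narrower ranges and Ccl19 is at 0 reads in 21 of 24 libraries.

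Among the ligands, Ccl25 (ENSMUSG00000023235, chr8:4325210-4360020 on GRCm38) was read in every library, with 273 to 13243 reads. Its level was 191, 261 and 347 CPM (lowest, median and highest) in CD, 144, 207 and 321 CPM in CDmetf, 214, 284 and 405 CPM in HFD, and 125, 257 and 315 CPM in HFDmetf. The 4 groups overlapped, and the highest library of all exceeded the lowest 3.25-fold. Cxcl12 (ENSMUSG00000061353, chr6:117168535-117181367) was at 20.2, 34.2 and 57.7 CPM in CD, 28.5, 49.7 and 62.6 CPM in CDmetf, 7.09, 45.4 and 78.2 CPM in HFD, and 34, 56.5 and 81.2 CPM in HFDmetf. The groups overlapped here too, and HFD F2, at 7.09 CPM, stood apart below the other 5 HFD libraries, which held 36.6 CPM or more.

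Cxcl13 (ENSMUSG00000023078, chr5:95956951-95961068) was far more uneven. It was at 1.07, 2.29 and 6.65 CPM in CD, 2.64, 9.58 and 36.7 CPM in CDmetf, 0, 3.46 and 21.3 CPM in HFD, and 1.21, 2.64 and 4.95 CPM in HFDmetf. The highest values were in CDmetf F2 (36.7 CPM), HFD F1 (21.3 CPM), CDmetf F3 (15.7 CPM), CDmetf M1 (14.5 CPM) and HFD M2 (14.03 CPM), while HFD M3 and HFD F2 held no read, and the groups overlapped. Ccl19 (ENSMUSG00000071005, chr4:42754525-42756577) was at the limit of detection, with 11 reads in all: 6 in HFD F1, 4 in CDmetf F3 and 1 in CD M1. The first 2 of these libraries were the deepest of the series, and no group difference of Ccl19 was detectable at this depth.

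Among the receptors, Cxcr5 (ENSMUSG00000047880, chr9:44511787-44561877) was at 0.261, 0.399 and 3.70 CPM in CD, 0, 2.71 and 22.1 CPM in CDmetf, 0, 1.45 and 18.2 CPM in HFD, and 0, 0.426 and 1.08 CPM in HFDmetf. Its high libraries were CDmetf F2 (22.1 CPM), HFD F1 (18.2 CPM), HFD M2 (16.3 CPM), CDmetf M1 (10.1 CPM), CDmetf F3 (5.04 CPM) and CD F1 (3.70 CPM), and the others held 2.07 CPM or less. In 10 of the 24 libraries Cxcr5 had fewer than 3 reads. Cxcr4 (ENSMUSG00000045382, chr1:128588199-128592293) was read in every library, at 2.08, 3.24 and 6.49 CPM in CD, 2.05, 5.39 and 19.7 CPM in CDmetf, 2.22, 5.74 and 18.1 CPM in HFD, and 2.72, 3.14 and 5.44 CPM in HFDmetf. All groups overlapped for both receptors, and CDmetf F2 and HFD F1 were again the highest libraries.

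Ccr6 and Ccr7 did not pass the filter on low counts. Cxcr5, which did, had a median of 0.446 CPM over the 24 libraries, between those of Ccr6 (0.747) and Ccr7 (0.39). Ccr6 (ENSMUSG00000040899, chr17:8236043-8257141) was at 0.266, 0.843 and 2.13 CPM in CD, 0.42, 2.40 and 11.6 CPM in CDmetf, 0, 1.31 and 10.5 CPM in HFD, and 0, 0.598 and 2.20 CPM in HFDmetf. Ccr7 (ENSMUSG00000037944, chr11:99144196-99155077) was at 0, 0.397 and 1.40 CPM in CD, 0.291, 0.757 and 6.55 CPM in CDmetf, 0, 0.454 and 5.73 CPM in HFD, and 0.103, 0.38 and 1.65 CPM in HFDmetf. Both were highest in CDmetf F2 and next highest in HFD F1, and the groups overlapped.

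Ccr9 and Ackr3 were more even. Ccr9 (ENSMUSG00000029530, chr9:123678439-123784330) was at 3.73, 4.71 and 6.49 CPM in CD, 2.34, 4.93 and 6.56 CPM in CDmetf, 3.92, 6.51 and 9.25 CPM in HFD, and 3.85, 4.86 and 6.84 CPM in HFDmetf. Ackr3 (ENSMUSG00000044337, chr1:90203980-90216751) was at 3.45, 4.19 and 8.58 CPM in CD, 3.44, 4.81 and 10.6 CPM in CDmetf, 3.10, 4.54 and 6.27 CPM in HFD, and 4.53, 7.29 and 11.2 CPM in HFDmetf. The highest library of each exceeded its lowest by 3.95-fold and 3.62-fold, and the groups overlapped. HFDmetf M1 had the highest Ackr3 and, at 81.2 CPM, also the highest Cxcl12.

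Differences were tested with edgeR's quasi-likelihood test over 13505 genes, in one model of all libraries with terms for group, sex and replicate number, and Benjamini-Hochberg adjustment (FDR) over all genes tested. Of the 10 members, 7 passed the filter, and a gene that passes because 1 group is high is more likely to differ, so counts over the 7 are descriptions. At an FDR of 0.05 the test called 0 genes, which is 0% of the 13505, in each of the 5 comparisons, members included. limma-voom also called 0 genes in each, and DESeq2 called 12 in HFD vs. CD, 4 in CDmetf vs. CD, 4 in the interaction and 0 in the other comparisons, none of them a member. Members are therefore described by their fitted difference with its standard error (SE), and by whether their unadjusted p was under 0.05. None of these differences passed the adjustment. In each of the 4 contrasts every member's groups overlapped, as did those of nearly all genes tested: groups without overlap were found for 0.074% of them in HFD vs. CD, 0.17% in HFDmetf vs. CDmetf, 0.0444% in HFDmetf vs. HFD and 0.163% in CDmetf vs. CD.

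For the diets without metformin, HFD vs. CD, 2 of the 7 tested members had an unadjusted p under 0.05, against 4.75% of all genes tested (642 genes). Cxcr5 was 2.53 higher in HFD on the log2 scale (SE 1.03, FDR = 0.995), and Cxcr4 was 0.99 higher (SE 0.43, FDR = 0.995). Between libraries of the same sex and replicate number, Cxcr4 was higher in 5 of 6 pairs and Cxcr5 in 4 of 6. The p of both depended on single libraries. For Cxcr4 it was no longer under 0.05 without HFD F1 (0.61 higher), HFD M2 (0.85), CD M1 or CD F3, and for Cxcr5 without HFD F1 (1.84 higher), HFD M2 (1.49), CD M1 or CD F2. Cxcl13 was fitted 1.10 higher (95% interval -0.39 to 2.58), although the mean of its log2 CPM was -0.69 relative to CD, and HFD M3 and HFD F2 held no Cxcl13 read.

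Cxcl12 depended on HFD F2. With that library its fitted difference in HFD vs. CD was 0.39 on the log2 scale (95% interval -0.34 to 1.12, FDR = 0.999). It was 0.66 without HFD F2 alone, 0.78 without both libraries that went against their labelled sex and 0.97 without all 4 doubted libraries (FDR = 0.785), each with an unadjusted p under 0.05. The fit without the 4 libraries tested 8 members, of which 3 had a p under 0.05, with Cxcl12 and Cxcr4 (1.27 higher) among them and Cxcr5 (1.96 higher) not. Of all 14560 genes in that fit, 657 had such a p.

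With metformin given on both diets, in HFDmetf vs. CDmetf, 3 of the 7 tested members had an unadjusted p under 0.05, against 7.55% of all genes tested (1020 genes), and all 3 were lower in HFDmetf. The log2 difference was -3.57 for Cxcr5 (SE 1.11, FDR = 0.561), -2.30 for Cxcl13 (SE 0.75, FDR = 0.561) and -1.14 for Cxcr4 (SE 0.44, FDR = 0.626). Cxcl13 was lower in 6 of 6 pairs, Cxcr4 in 5 of 6 and Cxcr5 in 4 of 6. Leaving out each of the 24 libraries in turn left the p of Cxcr5 and Cxcl13 under 0.05 in all 24 fits and that of Cxcr4 in 22. The 2 fits in which Cxcr4 lost it were those without CDmetf F2 (-0.80) and without CDmetf M1 (-0.97). Without the 4 doubted libraries, 4 of 8 members had such a p, and so did 960 of 14560 genes.

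The metformin comparison on the high-fat diet, HFDmetf vs. HFD, gave 2 of the 7 members with an unadjusted p under 0.05, against 6.87% of all genes tested (928 genes). The log2 difference was -3.32 for Cxcr5 (SE 1.14, FDR = 0.62) and -1.02 for Cxcr4 (SE 0.44, FDR = 0.62). Ackr3, the scavenging receptor of CXCL12, had a difference of 0.54 (95% interval -0.03 to 1.12) and was higher in HFDmetf in 5 of 6 pairs, and Ccl25 had one of -0.36 (95% interval -0.77 to 0.06). Cxcl13 had a fitted difference of -1.44 (95% interval -3.01 to 0.14). Its mean log2 CPM was 0.57 higher in HFDmetf, with HFD M3 and HFD F2 at no read. Without HFD F1 or HFD M2, no member had a p under 0.05 (Cxcr5 -2.69 and -2.12), and Cxcr4 lost it also without HFDmetf F1 or HFDmetf F2. Without the 4 doubted libraries, 1 of 8 members had such a p, Cxcr4 at -1.07, and so did 333 of 14560 genes.

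On the control diet, CDmetf vs. CD gave 3 of the 7 members with an unadjusted p under 0.05, against 5% of all genes tested (675 genes), and all 3 were higher with metformin. Cxcr5 was 2.78 higher on the log2 scale (SE 1.00, FDR = 0.963), Cxcl13 1.96 higher (SE 0.70, FDR = 0.963) and Cxcr4 1.11 higher (SE 0.42, FDR = 0.963). The pairs were higher in CDmetf in 3, 4 and 4 of 6 for these genes. Without CDmetf F2, the library in which all 3 were highest, Cxcr4 (0.74 higher) lost its p under 0.05, while Cxcr5 (2.27) and Cxcl13 (1.56) did not. Without the 4 doubted libraries 5 of 8 members had such a p, Cxcl12 (0.58 higher) among them, and so did 1030 of 14560 genes.

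The diet by metformin interaction, which measures how far the diet difference with metformin departs from that without it, gave 3 of the 7 members with an unadjusted p under 0.05, against 5.76% of all genes tested (778 genes). It was -6.11 on the log2 scale for Cxcr5 (SE 1.50, FDR = 0.627), -3.40 for Cxcl13 (SE 1.03, FDR = 0.754) and -2.13 for Cxcr4 (SE 0.61, FDR = 0.713). Each had a p under 0.05 in all 24 fits that left out 1 library. Without the 4 doubted libraries, 4 of 8 members had such a p, and so did 564 of 14560 genes. The contrasts share libraries, each group serving 2 of them, so the opposite signs are not separate observations. For the other 4 tested members the interaction was between -0.22 (Ccr9) and 0.25 (Ackr3).

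**Figure D2:**
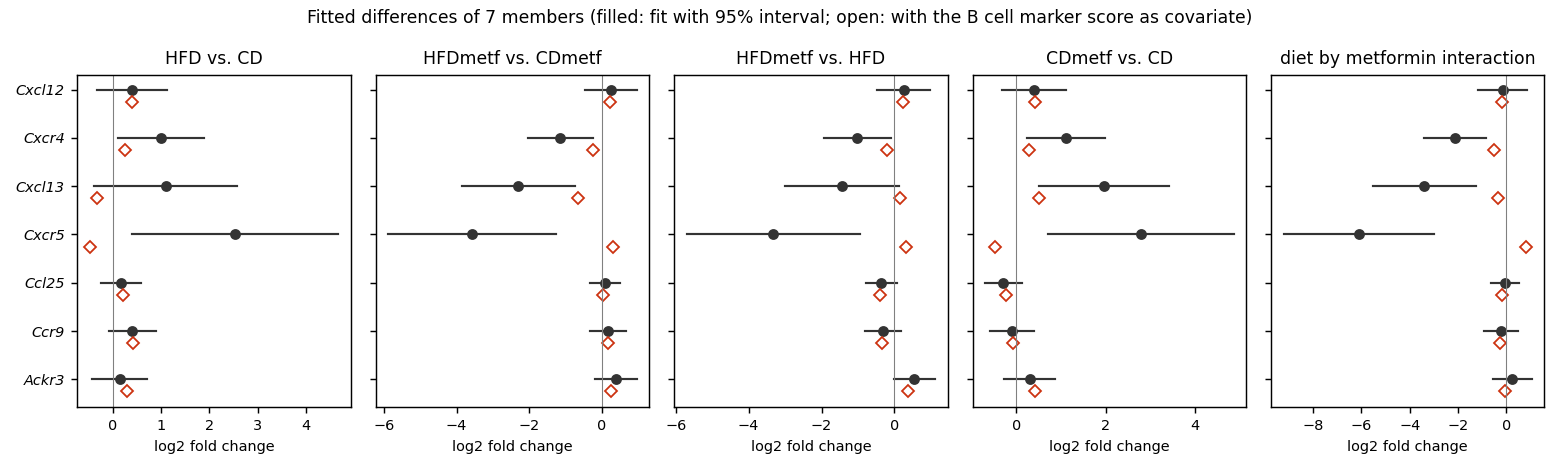
Fitted log2 fold changes of the 7 tested members in the 4 contrasts and the interaction (filled points with 95% intervals, edgeR), and the same values with a B cell marker score added to the model (open diamonds). The filled points of Cxcr4, Cxcl13 and Cxcr5 lie far from 0, with an interaction of -6.11 for Cxcr5, and their diamonds lie nearer to 0, while those of Cxcl12, Ccl25 and Ccr9 stay close to the filled points and the interaction of Ackr3 goes from 0.25 to -0.04.

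The receptors that failed the filter were tested in a fit without it. There Ccr6 differed by 1.61 in HFD vs. CD, -2.31 in HFDmetf vs. CDmetf, -1.83 in HFDmetf vs. HFD and 2.08 in CDmetf vs. CD on the log2 scale. Ccr7 differed by 1.60, -2.17, -2.17 and 1.60 in the same order. The interaction was -3.91 for Ccr6 (FDR = 0.299) and -3.78 for Ccr7 (FDR = 0.429), and both genes had an unadjusted p under 0.05 in all 5 comparisons. Of all 36824 genes in that fit, 1390 had such a p in HFD vs. CD, 2079 in HFDmetf vs. CDmetf, 1773 in HFDmetf vs. HFD, 1690 in CDmetf vs. CD and 1925 in the interaction. These are low counts, with fewer than 3 reads in 7 libraries for Ccr6 and in 9 for Ccr7. When the filter was given the design matrix, Ccr6 passed it and Ccr7 did not. Ccr6 then had such a p in HFDmetf vs. CDmetf, CDmetf vs. CD and the interaction. It did not in HFD vs. CD (1.565, SE 0.83) or HFDmetf vs. HFD (-1.77, SE 0.87). In the usual order of the 5 comparisons, 652, 1108, 931, 724 and 849 of all 14076 genes in that fit had such a p. Both receptors thus had the signs of Cxcr5 in each comparison.

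By replicate number, as the labels give it, the differences were not equal. In HFD vs. CD the mean log2 difference of Cxcr4 was 1.45 between libraries with number 1, -0.04 with number 2 and 0.62 with number 3, and that of Cxcl13 was 1.66, -1.60 and -2.13. The negative values of Cxcl13 rest on HFD F2 and HFD M3, which held no read of it and stand at the prior count. In the other pair of each number Cxcl13 was higher in HFD (HFD M2 14.03 against CD M2 5.22 CPM, HFD F3 3.37 against CD F3 2.02 CPM). In HFDmetf vs. CDmetf all 3 numbers gave lower values for Cxcr4 (-0.89, -0.71 and -0.90), Cxcl13 (-1.29, -1.97 and -1.82), Cxcr5 (-1.18, -1.46 and -3.16) and Ccr6 (-0.97, -1.58 and -2.64). By labelled sex, Cxcr5 differed in HFD vs. CD by 2.80 between males and -0.24 between females, a contrast that rests on HFD M2 and HFD F2, the libraries whose sex-linked transcripts went against their labels. In CDmetf vs. CD, Cxcr5 was 0.69 higher in males and 2.01 higher in females. The difference between the sexes was not tested.

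Ligand was set against receptor as the log2 ratio of their CPM in each library, as a description without a test. These CPM were not divided by exon length, so a ratio compares libraries and does not rank the genes of a pair. Cxcl12 had more CPM than Cxcr4 in all 24 libraries. Its exons span 8176 bp against 1808 bp, and per kilobase Cxcr4 was the higher gene in CDmetf F2 (10.9 against 7.65). The median log2 ratio was 3.23 in CD (1.93 to 4.10), 2.78 in CDmetf (1.61 to 4.62), 2.84 in HFD (1.19 to 3.79) and 3.93 in HFDmetf (3.40 to 4.32). HFDmetf had the smallest spread. The lowest ratio was in HFD F1, a library with high Cxcr4, while HFD F2 (1.64) had low values of both genes, 7.09 CPM of Cxcl12 and 2.22 CPM of Cxcr4. Against its other receptor, Ackr3, the median ratio of Cxcl12 was 2.92, 2.90, 3.23 and 2.87 in CD, CDmetf, HFD and HFDmetf. HFD F2, with its low Cxcl12, was the lowest at 1.17. Ccl25 exceeded Ccr9 by 5.66, 5.71, 5.48 and 5.49 on the same scale, with all 24 libraries between 4.73 and 6.15, the narrowest range of the 5 pairs.

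The follicle pair behaved otherwise. The median log2 ratio of Cxcl13 to Cxcr5 was 2.24 in CD, 2.25 in CDmetf and 2.08 in HFDmetf, where Cxcl13 had the higher CPM in every library. In HFD it was 0.11 (-3.46 to 3.63), and Cxcl13 had the higher CPM in 3 of 6 libraries. The exons of Cxcl13 span 1150 bp against 3332 bp for Cxcr5, so a ratio per kilobase would be higher in every library. Here HFD F2 had no read of either gene and HFD M3 none of Cxcl13, so that those ratios rest on the prior count of 1. The highest ratios, 5.28 in HFDmetf M3 and 5.02 in CDmetf M2, rest on it as well, since both libraries held no Cxcr5 read. Cxcr5 had fewer than 3 reads in 3 CD, 2 CDmetf, 2 HFD and 3 HFDmetf libraries, which limits all 4 medians. Ccl19 was never above Ccr7, with group medians from -2.63 to -1.93, and these too depend on the prior count, since Ccl19 was at 0 reads in 21 libraries. With a prior count of 0.25 the median went from -1.93 to -3.61 in CD and from -2.45 to -4.23 in HFDmetf.

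**Figure D3:**
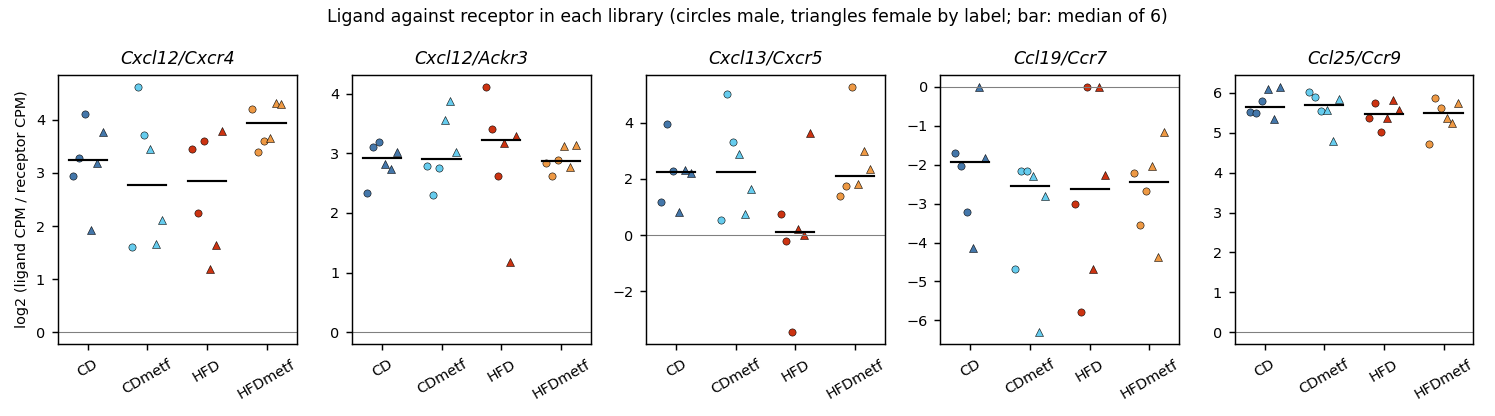
Log2 ratio of ligand to receptor CPM in each library (prior count 1) for 5 ligand and receptor pairs, by group (circles male and triangles female by label, bar: median of 6, grey line: equal CPM, not divided by exon length). Ccl25/Ccr9 lies between 4.73 and 6.15 in all 24 libraries, whereas Cxcl13/Cxcr5 runs from -3.46 to 5.28 and is lowest in HFD.

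Across the 24 libraries the members fell into patterns that cut across ligand and receptor. The correlations that follow are descriptions over libraries that share groups and differ in depth. Cxcr5 and Ccr6 were the most alike pair of members (Spearman's rho 0.857), followed by Cxcl13 and Ccr7 (0.735), Cxcr4 and Cxcr5 (0.703) and Cxcr4 and Ccr6 (0.701). Cxcl13 and its own receptor Cxcr5 had a rho of 0.59, and after the mean of each group was subtracted Pearson's r was 0.721. Cxcl12 went with Ackr3 (rho 0.65) and less with Cxcr4 (0.338). Ccl25 went with its receptor Ccr9 (0.676) and opposite to Cxcl12 (-0.711) and Ackr3 (-0.659). None of the 10 members had a rho above 0.446 in size with the number of reads on genes, and the largest, 0.446, was that of Ccl19.

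**Figure D4:**
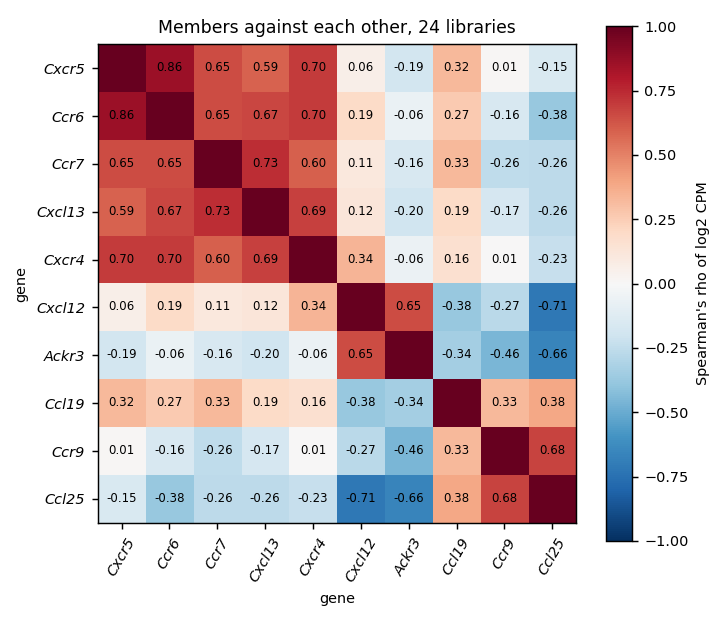
Spearman's rho between log2 CPM of the members over 24 libraries (red: high together, blue: opposite). Cxcr5, Ccr6, Ccr7, Cxcl13 and Cxcr4 form a block with rho from 0.59 to 0.857, Cxcl12 and Ackr3 a pair at 0.65, and Ccl25 and Ccr9 a pair at 0.676.

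The genes most like each member, outside the members and immunoglobulin segments, were taken from the 13505 tested genes by the same rho over 24 libraries. For Cxcr5 they were Arhgap4 (0.927), Acap1 (0.91) and Arhgap45 (0.862), and for Ccr6 H2-Eb2, an MHC class II chain (0.922), Fmnl1 (0.884) and Clu (0.883). Cxcr4 was most like Cd79b, a chain of the B cell receptor complex (0.865), Blk, a kinase of B cells (0.86), and Gimap6 (0.841). For Ccr7 they were Hvcn1 (0.874), Dtx1 (0.843) and Grap (0.827). Cxcl13 was most like Zfp318 (0.901), Coro1a, an actin regulator of leukocytes (0.858), and Ltb, the lymphotoxin beta gene (0.837).

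The other members had different neighbours. For Cxcl12 they were Cyth3 (0.868), Thbd, the thrombomodulin gene of endothelium (0.853), and Pea15a (0.835). For Ackr3 they were Dse (0.87), Cd34, a marker of endothelial and stromal cells (0.864), and Fstl1, a secreted glycoprotein of stromal cells (0.862). Ccl25 was most like Mocs2, a molybdenum cofactor synthesis gene (0.935), and Sfxn1, a mitochondrial serine transporter (0.928). Ccr9 was most like Mppe1 (0.818), Asb13 (0.816) and Ttpal (0.811). For Ccl19, with reads in 3 libraries, the highest rho was 0.573 (Arel1), with Ppp4r1 and Smg1 at 0.57.

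Markers of B cells moved with Cxcr5, Cxcl13, Ccr6, Cxcr4 and Ccr7. The 14 B cell markers, all tested, summed to 23.1 to 111 CPM in CD, 30.3 to 530 CPM in CDmetf, 35.4 to 445 CPM in HFD and 25 to 84.7 CPM in HFDmetf, and none was at 0 in every library. The 6 libraries with the highest sum were CDmetf F2, HFD F1, HFD M2, CDmetf M1, CDmetf F3 and CD F1. The same 6 libraries had the highest Cxcr5 and the highest Cxcl13, and 5 of them were among the 6 highest for Cxcr4, Ccr6 and Ccr7. They ranged from 2822385 to 40606442 reads on genes. Spearman's rho with the B cell sum was 0.848 for Ccr6, 0.794 for Cxcr5, 0.711 for Cxcr4 and Ccr7 and 0.654 for Cxcl13, against 0.116 for Cxcl12, -0.04 for Ackr3, -0.283 for Ccl25 and -0.0991 for Ccr9. All 14 markers were fitted higher in HFD vs. CD, of which 11 had an unadjusted p under 0.05, against 2.82% of all genes tested that were higher with such a p. All 14 were fitted lower in HFDmetf vs. CDmetf (11 with such a p, against 3.85% of all genes in that direction) and in HFDmetf vs. HFD (13, against 3.78%). In CDmetf vs. CD all 14 were fitted higher (11, against 2.33%). In bulk tissue, fewer cells of a type and less RNA per cell cannot be told apart.

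Adding the mean z-score of these 14 markers to the model left 0 of the 7 tested members with an unadjusted p under 0.05 in each of the 5 comparisons. The interaction of Cxcr5 went from -6.11 to 0.80 on the log2 scale, and its sign was reversed in the 4 contrasts as well. For Cxcl13 it went from -3.40 to -0.34 and for Cxcr4 from -2.13 to -0.50. The values of Cxcl12, Ccl25 and Ccr9 moved by little: Ccr9 in HFD vs. CD was 0.40 before and 0.41 after. The score was measured in the same libraries and was itself different between groups, so group and score cannot be told apart by this fit.

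**Figure D5:**
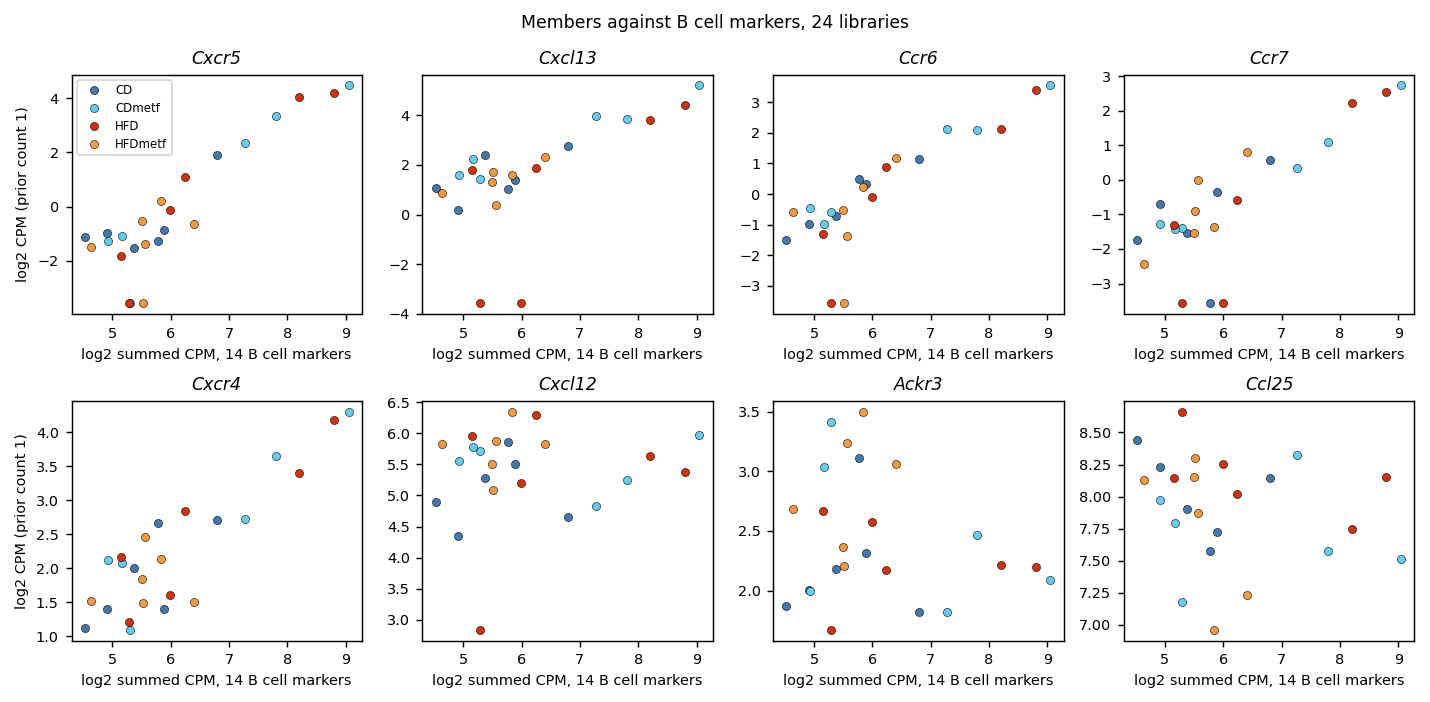
Log2 CPM of 8 members (prior count 1) against the log2 summed CPM of 14 B cell markers, 1 point per library, coloured by group. Cxcr5, Cxcl13, Ccr6, Ccr7 and Cxcr4 are high in the libraries with the highest B cell sum (up to 530 CPM), which are CDmetf and HFD libraries and CD F1, and Cxcl12, Ackr3 and Ccl25 show no such course.

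Markers of T cells and of lymphoid stroma moved with Cxcr5, Cxcl13, Ccr6, Cxcr4 and Ccr7 too. T cell markers, of which 6 of 12 were tested, summed to 21.2 to 44.9 CPM in CD, 17.6 to 130 CPM in CDmetf, 21.7 to 74.4 CPM in HFD and 25.5 to 33.5 CPM in HFDmetf. Their rho was 0.834 with Cxcr4, 0.772 with Ccr6, 0.676 with Cxcr5, 0.666 with Cxcl13 and 0.64 with Ccr7, above that of the B cell sum for Cxcr4 and Cxcl13. Markers of lymphoid stroma (Madcam1, Tnfsf11, Pdpn, Clu, Cr2 and Mfge8, 5 of 6 tested) summed to 59.1 to 131 CPM in CD, 76.8 to 434 CPM in CDmetf, 49.6 to 440 CPM in HFD and 78.9 to 175 CPM in HFDmetf. Here rho was 0.865 with Ccr6, 0.799 with Cxcr4, 0.789 with Cxcr5, 0.733 with Ccr7 and 0.63 with Cxcl13, close to the values of the B cell sum. Plasma cell markers, 4 of 6 tested, had no member above a rho of 0.531, that of Ccr9, and summed to 410 to 1014 CPM over all libraries. No marker of these lists was at 0 in every library, and their part in the values of the members was not tested.

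For the even members the strongest values lay elsewhere. Ackr3 had a rho of 0.842 with the sum of 7 fibroblast markers (299 to 1488 CPM) and -0.743 with that of 7 epithelial markers. Cxcl12 had 0.752 with the fibroblast sum and 0.707 with that of 7 endothelial markers (67.8 to 353 CPM). Ccl25 had 0.725 with the epithelial sum, -0.864 with the endothelial and -0.695 with the smooth muscle sum, and Ccr9 had 0.504, -0.667 and -0.731 with the same. Fibroblast markers had medians of 538 summed CPM in CD, 649 in CDmetf, 609 in HFD and 749 in HFDmetf, the same group being highest as for Ackr3 and Cxcl12. All 7 fibroblast markers were fitted higher in HFDmetf vs. HFD (median log2 difference 0.52, against -0.01 over all genes tested), with 0 of 7 at an unadjusted p under 0.05. Markers of smooth muscle, adipocytes and pancreas summed to 1001 to 3327, 9.3 to 280 and 1.63 to 39.2 CPM over the 24 libraries. Proximal enterocyte markers (Fabp1, Apoa4, Cyp8b1 and Ada) summed to 69.7 to 9405 CPM, with a rho of 0.679 with Ccr9 and 0.663 with Ccl25. Their medians were 216 CPM in CD, 181.5 in CDmetf, 3249 in HFD and 826 in HFDmetf. All 3 tested were higher in HFD vs. CD with an unadjusted p under 0.05, against 2.82% of all genes in that direction. HFD M3, the library with the highest Ccr9, had the highest proximal sum and the lowest ileal sum (5.89 CPM). The part of these markers in the values of Ccr9 and Ccl25 was not tested.

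A wider list of 43 other homing and recruiting chemokines, receptors and related guidance receptors held 17 tested genes. The number of these with an unadjusted p under 0.05 was 1 in HFD vs. CD, 1 in HFDmetf vs. CDmetf, 0 in HFDmetf vs. HFD, 2 in CDmetf vs. CD and 2 in the interaction, against 4.75%, 7.55%, 6.87%, 5% and 5.76% of all genes tested, and none passed the adjustment. The median log2 difference of the list was 0.18, -0.06, -0.06, 0.12 and -0.24 in the 5 comparisons, against 0.01, 0.03, -0.01, -0.02 and 0.01 over all genes tested. Gpr183, an oxysterol receptor that positions B cells and dendritic cells, was 1.15 higher in HFD than in CD on the log2 scale (FDR = 0.995), differed by -0.95 in HFDmetf vs. HFD and had an interaction of -1.75 (FDR = 0.816). S1pr1, through which lymphocytes leave lymphoid tissue, was 0.96 higher in CDmetf than in CD (FDR = 0.963) and had an interaction of -1.16 (FDR = 0.816).

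The remaining named genes of that list were smaller in size. Cxcl16, the ligand of Cxcr6, differed by -0.54 in HFDmetf vs. CDmetf (FDR = 0.626), and Cxcl14 was 0.42 higher in CDmetf than in CD (FDR = 0.963). Ccl11, eotaxin, was 0.57 higher in HFDmetf than in CDmetf and 0.55 higher than in HFD. Ccr1 was 0.58 higher in HFD than in CD. Ccl20, the ligand of Ccr6, was not tested, with 263 reads in all and 0 reads in 8 libraries. Ccl21a, the second ligand of Ccr7, was listed at 0 in all 24 libraries, and its near-identical copies make this value uncertain.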

How the data were processed

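Bulk RNA sequencing covered 24 mice, 1 library each, in the groups CD, CDmetf, HFD and HFDmetf. The file the authors deposited holds raw gene read counts. Their methods name Trimmomatic 0.39 for trimming (quality 25 in windows of 5 bases, reads of 30 bp or longer kept) and STAR 2.5.3a for mapping to GRCm38 and counting. Which annotation release was used and which strand was counted is not given in the sources used here. Symbols were found for 55450 of 55536 Ensembl IDs, and 0 columns belonged to other samples. Summary lines for unmapped, multimapped, unassigned and ambiguous reads (ambiguous: 1.86 to 12.6% of the reads of a library) stayed out of library sizes and tests. Depth was 1829690 to 40606442 reads on genes.

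From these counts, edgeR 4.0.16 (R 4.3.3) kept 13505 genes (filterByExpr, given the groups), applied TMM and fitted one quasi-likelihood model to all 24 libraries (terms: group, sex, replicate number; 17 residual degrees of freedom). The 4 contrasts and the diet by metformin interaction were adjusted by Benjamini-Hochberg, with a threshold of 0.05. Standard errors were derived from the fold change and the F statistic. Log2 CPM used a prior count of 1. The floor was 3 reads, which covers counting error only. The replicate number served as block since the study's methods use a sequencing block as covariate, but whether the number is that block is not stated. Each library is a separate animal.

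The members and lists were chosen with earlier results of these data known. Named genes are all members, the 2 other chemokine genes with the smallest p in each comparison, and the 3 tested genes most like each member, of which 1 is not reported here. Ccl20 and Ccl21a were named after their values were seen. Alternatives were limma-voom, DESeq2 (limma 3.58.1, DESeq2 1.42.0), RLE in place of TMM, no low-count filter, no replicate block, a fit to only the groups compared, the B cell score as covariate, a prior count of 0.25, and leaving out HFD M2 with HFD F2 or each library in turn. A fit without 4 doubted libraries and a filter given the design matrix were added after seeing the data. The model fit was tested on simulated data.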

Additional observations from a re-analysis of the deposited data

Results flagged for a closer look

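In the 39 sets of 6 libraries that held reads of a member, 5 had 1 library far from the others by Dixon's ratio of the gap to the nearest library over the range of log2 CPM. Chance flags about 1 set in 20. Cxcl12 in HFD F2 was the lowest of HFD at 7.09 CPM, with a ratio of 0.683 and the other 5 libraries between 36.6 and 78.2 CPM. Cxcr5 in CD F1 was the highest of CD at 3.70 CPM, with a ratio of 0.806 and the others between 0.261 and 0.466 CPM. Ccl19 in CD M1, CDmetf F3 and HFD F1 had a ratio of 1, since the other libraries of each group held 0 reads, and these values rest on 1, 4 and 6 reads. No member had differences of one sign in all 6 pairs under one condition and of the opposite sign in all 6 under the other.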

How the results depend on the processing

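With no replicate block, the members whose unadjusted p was under 0.05 numbered 2 for HFD vs. CD, 3 for HFDmetf vs. CDmetf, 2 for HFDmetf vs. HFD, 3 for CDmetf vs. CD and 3 for the interaction, the same counts as with the block, and 0 genes were called. Libraries with the same number were on average more alike than those with different numbers, with a wide spread. Deviations from the group and sex means were correlated between libraries of different groups. The mean r was 0.143 with the same number (72 pairs, 42 over 0.1) and -0.0703 with different numbers (144 pairs, 33 over 0.1). With the same number and sex it was 0.102 (-0.524 to 0.676, 36 pairs, 17 over 0.1). Without the block, 507, 791, 731, 505 and 639 of all 13505 genes had an unadjusted p under 0.05, against 642, 1020, 928, 675 and 778 with it. DESeq2 called 12 genes in HFD vs. CD, 4 in CDmetf vs. CD and 4 in the interaction, where edgeR called 0. In the same order of comparisons, the members with such a p were 4, 5, 5, 5 and 5 of 10 without the filter (1390, 2079, 1773, 1690 and 1925 of all 36824 genes) and 0 in all 5 with the B cell score (833, 953, 974, 802 and 945 of all 13505 genes). With only the libraries compared there was 1 in HFD vs. CD, likewise 1 in HFDmetf vs. HFD, and without the 4 doubted libraries 1 in HFDmetf vs. HFD and 5 in CDmetf vs. CD. Leaving out 1 library gave 0 to 5 in HFD vs. CD, 2 to 4 in HFDmetf vs. CDmetf, 0 to 5 in HFDmetf vs. HFD, 2 to 4 in CDmetf vs. CD and 3 to 4 in the interaction. Of all genes in those fits, 454 to 1136, 665 to 1527, 379 to 2247, 462 to 843 and 533 to 1165 had such a p, in the same order. The 5 members in HFDmetf vs. HFD came without HFD F3, where 2247 of 13706 genes had it.

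Of the members' log2 differences under the alternatives that did not leave out single libraries, 322 kept their sign and 17 changed it. No member passed the FDR threshold to begin with, so keeping to that side of it says nothing about stability. With the B cell score these were Cxcr5 in all 5 comparisons (-0.48, 0.32, 0.33, -0.47 and 0.80), Cxcl13 in HFD vs. CD (-0.33), also in HFDmetf vs. HFD (0.16), and Ackr3 in the interaction (-0.044). Without HFD M2 and HFD F2 they were Ccl25 in HFD vs. CD (-0.024) and the interaction (0.12), Cxcl12 in HFDmetf vs. HFD (-0.11) and Ackr3 in the interaction (-0.0067), and without the 4 doubted libraries the same genes at -0.11, 0.25, -0.088 and -0.016. With limma-voom it was Ccr9 in CDmetf vs. CD (0.032). Leaving out single libraries, 824 kept their sign and 16 changed it. The ranges that cross 0 were -0.00036 to 0.24 for Ccl25 and -0.065 to 0.36 for Ackr3 in HFD vs. CD, -0.00012 to 0.21 for Ccl25 in HFDmetf vs. CDmetf, -0.25 to 0.042 for Ccr9 in CDmetf vs. CD, and -0.40 to 0.063 for Cxcl12 and -0.17 to 0.10 for Ccl25 in the interaction. The cause of these changes was not tested. Reads limit Ccl19, Ccr7, Ccr6 and Cxcr5 most.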
